A study of Mus musculus with 30 samples.

Results

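The genes described here are 10 genes of the choroid plexus: Ttr, Kcne2, Tmem72, Folr1, Kl, Clic6, Aqp1, Otx2, Sostdc1 and Slc4a5. They were chosen by name, and every probe of the array that carries one of these names was taken, control spots left out. This gave 14 probes of the 41174 on the array, for 10 of its 28146 gene names. Of these, 12 probes, at least 1 for each gene, were among the 29947 probes tested, those found well above background on 50% or more of the arrays of 1 genotype or more. The other two were a Kl probe (A_52_P112159), well above background on 1 of 30 arrays, and a Slc4a5 probe (A_52_P384831), well above background on 7 of 30.

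Hypothalamic blocks were dissected from male mice kept under short cycles of 3.5 h light and 3.5 h dark, whose brains were taken in light phase 17, and the RNA of each mouse was hybridized to 1 single-colour array. The 30 arrays came from 7 Per3 5/5 mice (Boxhill in the labels), 8 Per3 4/4 mice (Coach) and 15 wild-type (WT) mice. Mice of both knock-in genotypes are homozygous for a mouse Per3 gene in which an exon was replaced by its human PER3 counterpart. The human exon holds a variable number tandem repeat, with 5 copies in Per3 5/5 and 4 in Per3 4/4. The alleles were made by targeting in C57BL/6-derived embryonic stem cells and recombined by a Cre under the ubiquitous PGK promoter that was then bred out, and the WT mice, which carry mouse Per3, came from the same crosses on C57BL/6. The sources used here do not say how many targeted clones each line came from. The 7 Per3 5/5 arrays were made with WT arrays 1 to 7 in run 1, and the 8 Per3 4/4 arrays with WT arrays 8 to 15 in run 2, on another scanner. Levels were therefore compared only within a run, and run and allele cannot be told apart. In each run the arrays were scanned in 4 sets, called slides here, all with arrays of both genotypes of the run. In run 2 the last 2 sets carry the same barcode with each of its 4 array positions written for 2 mice. They are kept apart here by scan time.

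Some arrays stood apart before any comparison was made. In run 1, 13 of the 14 columns of the table of values that the authors also deposited matched the scanner file of another array of the same genotype, and 1 matched the array of its own number, so the replicate numbers of run 1 are not settled. The genotype matched for all 14, and in run 2 all 16 columns matched their own array. Arrays are numbered here as the scanner files are. Of 19 listed genes of hypothalamic neurons 17 had a tested probe, and no more than 1 of these was below background on every array of a group. WT array 10 had a summed level of 38.9 for 17 genes of hypothalamic neurons (linear, in units of the array's 75th percentile), against 170.5 in the next lowest WT array of run 2, and 62.6 for 10 genes of cortex and hippocampus, against 19.4 in the next highest. WT array 14 had a summed level of 1386 for 10 pituitary genes, against 43.7 in the next highest. Per3 4/4 array 5 and WT array 15 were dim, with 75th percentiles of 347 and 490 intensity units against a median of 972 over the 30 arrays.

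The choroid plexus is a folded epithelium that lies in the ventricles of the brain and secretes the cerebrospinal fluid. Its cells carry ions and water into the ventricle, take up folate and other nutrients from the blood, and release transthyretin, the carrier of thyroxine and, with retinol-binding protein, of retinol. The plexus of the third ventricle hangs from its roof, beside the thalamus and habenula and above the hypothalamus. In RNA from a block of tissue, fewer choroid plexus cells and less RNA per cell cannot be told apart.

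The probes are 60 bases long, and the first 30 bases of 6 of them are given as the array's annotation gives them, 5′ to 3′. Kcne2 is shown as the gene that followed Ttr most closely, Aqp1 as the gene with 1 array against the pattern, and Clic6 and Folr1 as the genes measured by 2 probes that were both tested.
Kcne2 A_51_P153132: gttccaagccattctagacccattgcactg
Aqp1 A_51_P125205: ctgtgtatgtttctttgcaattgaatttca
Clic6 A_52_P447284: gctcttgtgacattcaaacttggtaaatga
Clic6 A_51_P354307: aaagcaatgaagggatctcctggttcctta
Folr1 A_51_P329394: tgatcagctgagttcctgttttaccttcag
Folr1 A_52_P584335: ctgggctttttcctgtgctccgagtaggtg
In mm9 coordinates, as the annotation gives them, the Kcne2 probe lies at chr16:92298155-92298214 on the plus strand and the Aqp1 probe at chr6:55298480-55298539 on the plus strand. The Clic6 probes lie on the plus strand at chr16:92541363-92541422 and chr16:92540395-92540454, and the Folr1 probes on the minus strand at chr7:109006929-109006988 and chr7:109016972-109017031. Where a gene had 2 probes, the one with the higher mean stands for the gene in counts and medians, which is the first of each pair above, and for Kl and Slc4a5 the only probe tested (A_52_P439358 and A_51_P403814).

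Ttr and many of the other 9 genes varied widely between mice. They were low on some arrays and high on others, in knock-in mice of both runs and in the WT mice of run 2. Whether the levels fell into separate groups was not tested. Of the probes that stand for a gene, those of Ttr, Kcne2, Tmem72, Aqp1 and Slc4a5 were not well above background on some of the low arrays, and the other 5 were well above it on all 30. Ttr, which encodes transthyretin, ranged in Per3 5/5 from a log2 level of -6.47 to 0.66 with a median of -1.46 (levels are log2 intensity minus the array's 75th percentile, so that 0 is that percentile). In the WT arrays of run 1 it ranged from -1.53 to 0.51 with a median of -0.80. The WT arrays of run 1 thus lay close together, while Per3 5/5 arrays 5, 6 and 7, at -5.90, -6.47 and -3.94, lay below all of them and the other 4 Per3 5/5 arrays lay among them or, for array 3, just above. In Per3 4/4 Ttr ranged from -4.14 to 3.14 with a median of -1.40, and among WT arrays of run 2 its median was -3.52 (-7.13 to 2.65). Per3 4/4 arrays 1 to 4 lay between 0.75 and 3.14, and arrays 5 to 8 between -4.14 and -3.56. Of the 8 WT arrays of run 2, 2 were on the high side, array 9 at 2.65 and array 14 at 0.46. Ttr was not well above background on Per3 5/5 arrays 5 and 6 and WT arrays 10 and 15, so its low values there are bounds rather than levels.

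**Figure D1:**
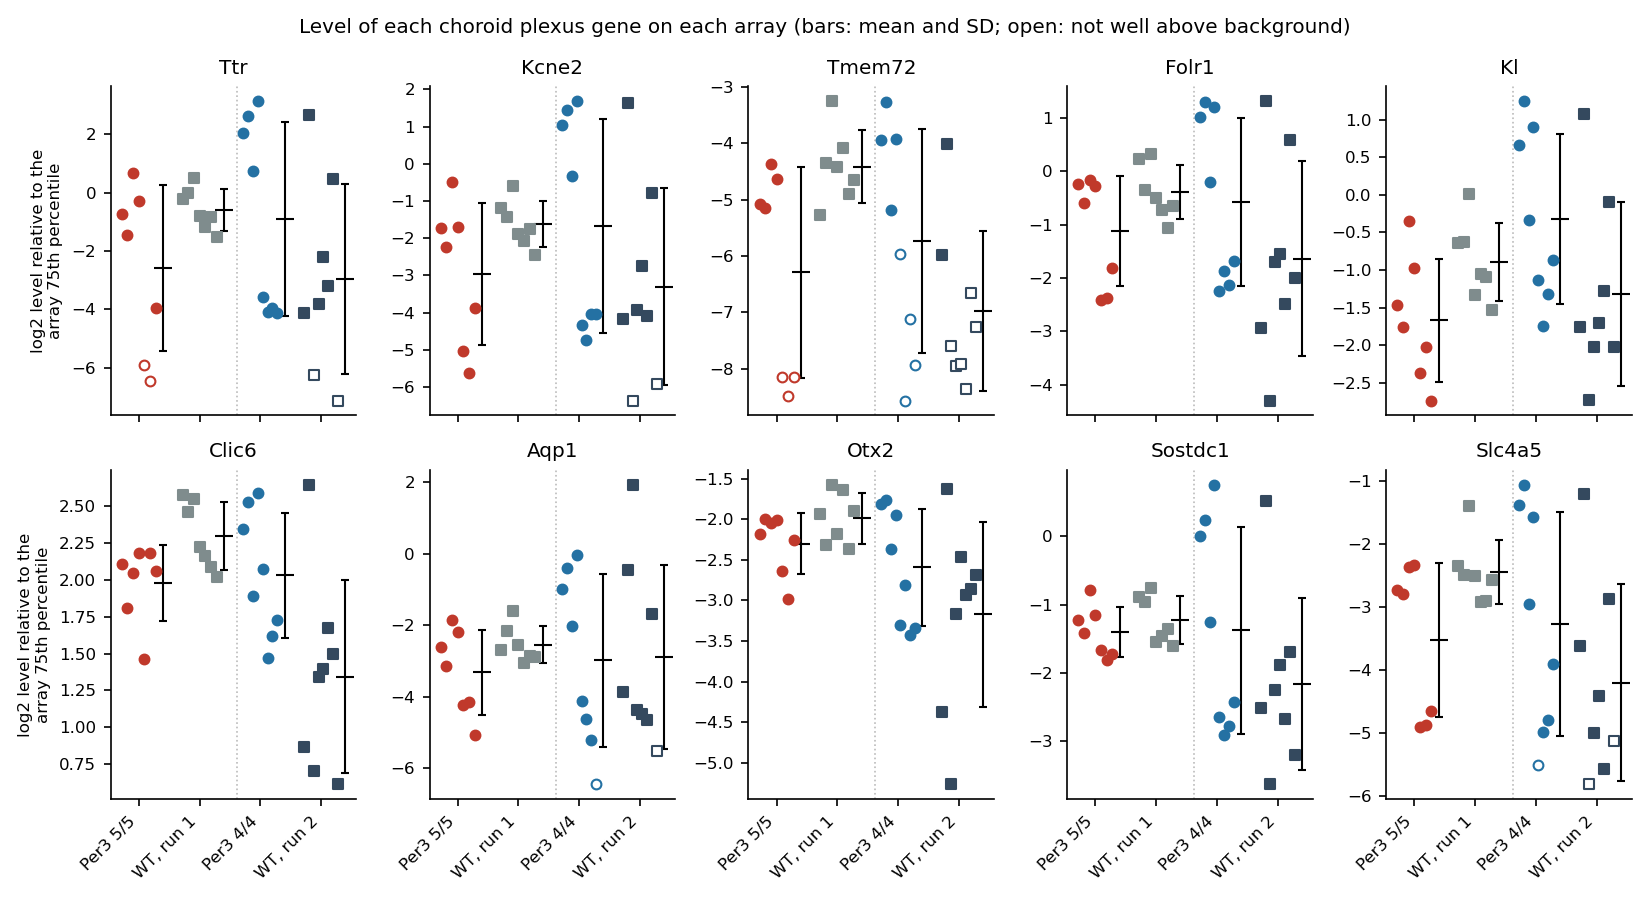
Log2 level of each of the 10 genes on every array (y axis, relative to the array's 75th percentile), by group on the x axis: red circles are Per3 5/5 and grey squares WT of run 1, blue circles Per3 4/4 and dark squares WT of run 2, with the group mean and SD as a bar beside them and open symbols for values not well above background. For Ttr the low side is held by 3 of 7 Per3 5/5, 0 of 7 WT in run 1, 4 of 8 Per3 4/4 and 6 of 8 WT arrays in run 2.

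Sorted by level, the 14 arrays of run 1 had their largest gap in Ttr between -3.94 and -1.53, a step of 2.40, with 3 arrays below it, all Per3 5/5. The 16 arrays of run 2 had theirs between -2.21 and 0.46, a step of 2.67, with 10 arrays below it, 4 Per3 4/4 and 6 WT. In run 1 the same 3 arrays, and no others, lay below the largest gap of Kcne2, Tmem72, Folr1, Aqp1 and Slc4a5. Kl and Sostdc1 were also lower on those 3 arrays than on all 11 others, but had their largest gap elsewhere, and Clic6 and Otx2 overlapped. In run 2 the same 10 arrays lay below the largest gap of Kcne2, and Folr1, Kl, Sostdc1 and Slc4a5 were lower on all 10 than on any of the other 6. Tmem72, Clic6, Aqp1 and Otx2 overlapped there.

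The spread within a group was correspondingly large. The SD of Ttr was 2.84 in Per3 5/5, 3.32 in Per3 4/4 and 3.25 in the WT arrays of run 2, where it ranked 2, 3 and 6 among the SDs of all 29947 probes tested. It was 0.72 in the WT arrays of run 1, where it ranked 903. Counted over the 10 genes, the SD lay above the 99th percentile of all probes for 5 genes in Per3 5/5, 0 in WT of run 1, 7 in Per3 4/4 and 6 in WT of run 2.

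**Figure D2:**
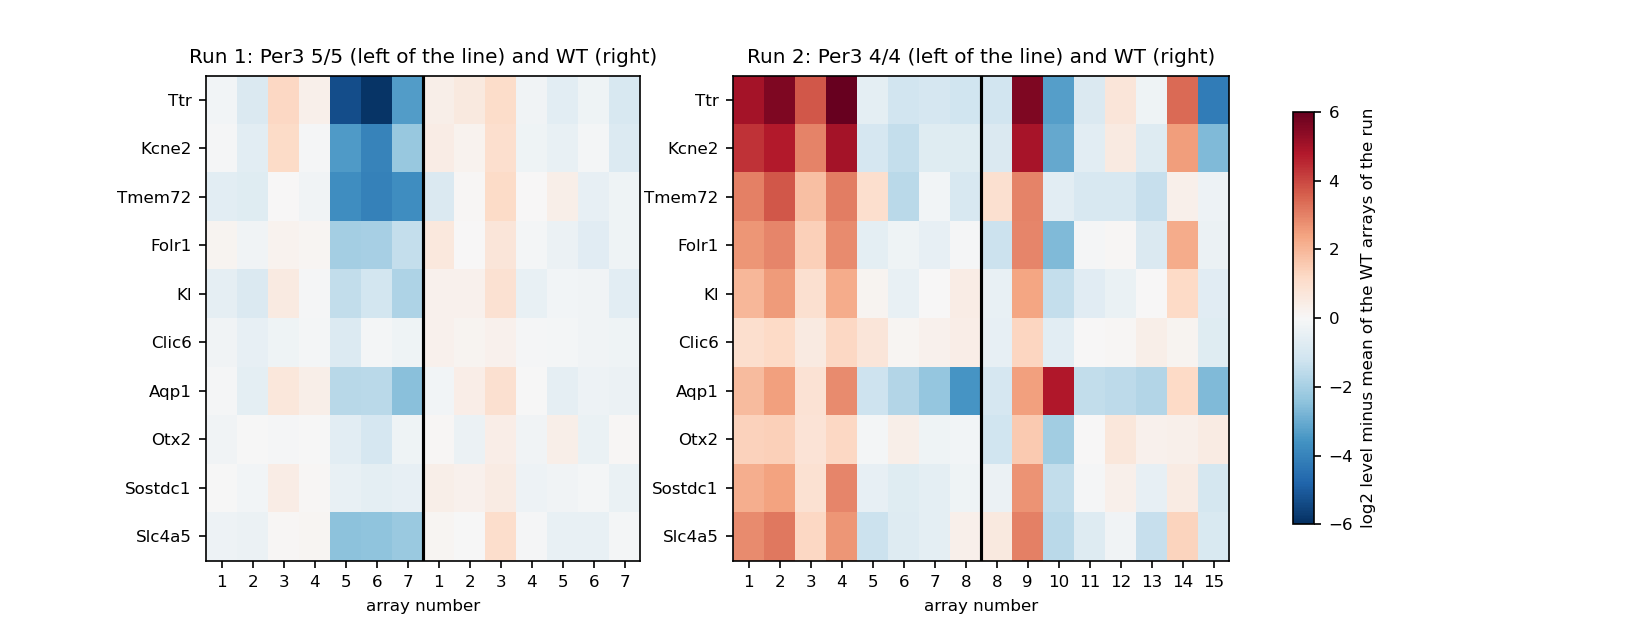
Each gene (y axis) on each array (x axis, array number), coloured by its log2 level minus the mean of the WT arrays of its run, for run 1 on the left and run 2 on the right, with knock-in arrays left of the black line. The columns of Per3 5/5 arrays 5 to 7 are blue for most genes and those of Per3 4/4 arrays 1 to 4 and WT arrays 9 and 14 red, and Aqp1 on WT array 10 is the red cell in a blue column.

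Among the genes for ions and water, Kcne2, a subunit of potassium channels, had a median of -2.24 in Per3 5/5 (-5.63 to -0.50), against -1.74 in the WT arrays of run 1 (-2.46 to -0.61). It had a median of -2.18 in Per3 4/4 (-4.75 to 1.69), against -4.01 in the WT arrays of run 2 (-6.36 to 1.63). Per3 5/5 arrays 5 to 7 lay below every WT array of run 1, and Per3 5/5 array 3 just above every one. Per3 4/4 array 4 lay just above every WT array of run 2, and the rest overlapped. Slc4a5, a sodium bicarbonate cotransporter of the plexus, had a median of -2.79 in Per3 5/5 (-4.91 to -2.33), against -2.51 in WT of run 1 (-2.91 to -1.39). Its median was -3.42 in Per3 4/4 (-5.51 to -1.06), against -4.70 in WT of run 2 (-5.81 to -1.20). The medians of Per3 5/5 and its WT differed by less than the range of the WT arrays, and the 3 low arrays were the same as for Kcne2.

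Aqp1, the water channel of the epithelium facing the ventricle, had a median of -3.13 in Per3 5/5 (-5.06 to -1.86), against -2.69 in WT of run 1 (-3.06 to -1.59). Its median was -3.07 in Per3 4/4 (-6.45 to -0.04), against -4.13 in WT of run 2 (-5.52 to 1.92). Its highest level of run 2 was on WT array 10, at 1.92, the array on which Ttr was second lowest, at -6.24, and which stood apart in its neuronal genes. Clic6, an intracellular chloride channel protein, was well above background on all arrays and varied least in run 1: its probe A_52_P447284 ran from 1.47 to 2.19 in Per3 5/5 (median 2.06) and from 2.02 to 2.58 in WT of run 1 (median 2.22). In run 2 it ran from 1.47 to 2.59 in Per3 4/4 (median 1.98) and from 0.61 to 2.65 in WT (median 1.37). All 7 Per3 5/5 arrays lay below the mean of their WT arrays and all 8 Per3 4/4 arrays above the mean of theirs, while the groups overlapped in both runs.

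Of the receptor genes, Folr1, the folate receptor through which the plexus takes up folate, had a median of -0.59 in Per3 5/5 (-2.41 to -0.17), against -0.50 in WT of run 1 (-1.05 to 0.32), by its probe A_51_P329394. It had a median of -0.94 in Per3 4/4 (-2.24 to 1.30), against -1.86 in WT of run 2 (-4.29 to 1.32). Its other probe, A_52_P584335, was much less variable in run 1, from -4.62 to -3.16 in Per3 5/5 and from -4.64 to -4.06 in WT, with no array set apart on the low side. Kl encodes Klotho, the co-receptor through which fibroblast growth factor 23 acts. It had a median of -1.75 in Per3 5/5 (-2.73 to -0.35), against -1.05 in WT of run 1 (-1.53 to 0.02). In run 2 its median was -0.60 in Per3 4/4 (-1.74 to 1.25), against -1.73 in WT (-2.73 to 1.07). For Kl 4 of 7 Per3 5/5 arrays were lower than any WT array, 1 more than for Ttr.

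Otx2, a homeodomain transcription factor that the plexus needs in development, changed little between arrays of run 1, with a median of -2.18 in Per3 5/5 (-2.99 to -2.001) and -1.93 in WT (-2.37 to -1.58). In run 2 it had a median of -2.59 in Per3 4/4 (-3.42 to -1.76) and -2.89 in WT (-5.26 to -1.62). All 7 Per3 5/5 arrays lay below the WT mean, although 5 of 7 were within the WT range. Sostdc1, a secreted inhibitor of BMP and Wnt signalling, had a median of -1.41 in Per3 5/5 (-1.81 to -0.78) and -1.36 in WT of run 1 (-1.61 to -0.75). In run 2 its median was -1.84 in Per3 4/4 (-2.90 to 0.76) and -2.39 in WT (-3.63 to 0.52). Its spread in run 1 was thus a fraction of that in run 2, and the low Per3 5/5 arrays lay only just below the WT arrays. Tmem72, a gene for a membrane protein, had a median of -5.15 in Per3 5/5 (-8.49 to -4.38), against -4.42 in WT of run 1 (-5.28 to -3.25). In run 2 its median was -5.58 in Per3 4/4 (-8.57 to -3.26), against -7.44 in WT (-8.37 to -4.01). Tmem72 was well above background on 17 of 30 arrays: 4 of 7 Per3 5/5, 7 of 7 WT of run 1, 4 of 8 Per3 4/4 and 2 of 8 WT of run 2.

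Genes were compared with the WT arrays of their run, by the 1 probe that stands for each. Per3 5/5 mice had lower mean levels of all 10 genes and Per3 4/4 mice higher mean levels of 9 of 10. None of these differences passed the test. The other tested Folr1 probe, A_52_P584335, went the other way in Per3 5/5, higher by 0.11. With limma and Benjamini-Hochberg adjustment over all 29947 probes, 0 of 12 probes were called at an adjusted p of 0.05 in either comparison. Over all probes limma called 0% in Per3 5/5 and 0.0134% (4 probes) in Per3 4/4. The median difference over the 10 genes was -0.77 on the log2 scale in Per3 5/5, against -0.02 over all probes tested, of which 54.5% were below 0. The median in Per3 4/4 was 0.96, against 0.01 over all probes, of which 51.7% were above 0. The 10 genes rise and fall together from mouse to mouse, so their shared direction is not 10 separate observations.

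**Figure D3:**
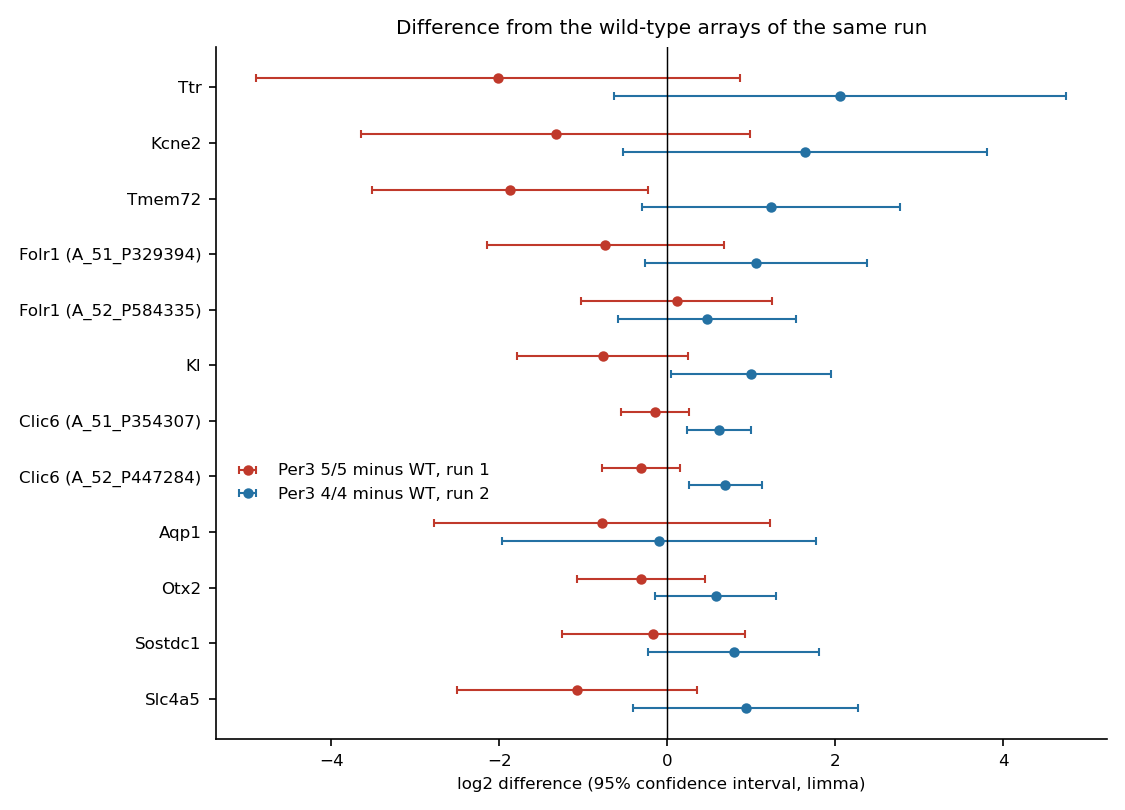
Difference in mean log2 level from the WT arrays of the same run (x axis) for each of the 12 tested probes (y axis), Per3 5/5 in red and Per3 4/4 in blue, with bars for the 95% confidence interval from limma. Of the 24 intervals, 20 span 0. The exceptions are Tmem72 in Per3 5/5 and Kl and both Clic6 probes in Per3 4/4, which have unadjusted intervals clear of 0. All rest on a spread pooled over the 4 groups.

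Ttr was 4.03-fold lower in Per3 5/5, a log2 difference of -2.01 (SE 1.41, 95% interval -4.89 to 0.87, limma adjusted p = 0.843), with 5 of 7 arrays below the WT mean. It was 4.16-fold higher in Per3 4/4, a difference of 2.06 (SE 1.32, interval -0.64 to 4.75, limma adjusted p = 1.00), with 4 of 8 arrays above the WT mean. In size, these were among the largest of all probes, rank 6 from the lowest in Per3 5/5 and rank 3 from the highest in Per3 4/4, yet the intervals reach from large decreases to increases. Kcne2 differed by -1.33 (SE 1.13, interval -3.65 to 0.99) in Per3 5/5 and by 1.64 (SE 1.06, interval -0.53 to 3.80) in Per3 4/4. Tmem72 differed by -1.87 (SE 0.80, interval -3.51 to -0.23) and by 1.23 (SE 0.75, interval -0.30 to 2.77). With normexp background correction, which pulls dim values together, Ttr differed by -1.18 and 1.35, Kcne2 by -0.82 and 1.16 and Tmem72 by -0.54 and 0.27, and the median over the 10 genes was -0.57 and 0.63. Slc4a5, Folr1 and Kl differed by -1.08, -0.74 and -0.77 in Per3 5/5 and by 0.93, 1.06 and 0.99 in Per3 4/4, with SEs between 0.47 and 0.70. With normexp Slc4a5 differed by -0.64 and 0.45, while Folr1 and Kl moved by less than 1.5 times. Otx2 and Sostdc1 differed by -0.31 and -0.17 in Per3 5/5 and by 0.58 and 0.79 in Per3 4/4, with SEs between 0.35 and 0.53.

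Clic6 showed the smallest errors of the 10 genes. In Per3 4/4 it was higher by 0.69 (SE 0.21) with the probe A_52_P447284 and by 0.61 (SE 0.19) with A_51_P354307, each with 8 of 8 arrays above the WT mean, and in Per3 5/5 lower by -0.32 (SE 0.23) and -0.15 (SE 0.20), with 7 of 7 and 6 of 7 arrays below it. The limma adjusted p was 1.00 for both probes in Per3 4/4, and 0.845 and 0.960 in Per3 5/5. Aqp1 differed by -0.78 (SE 0.98) in Per3 5/5 and by -0.10 (SE 0.91, interval -1.97 to 1.77) in Per3 4/4, the only gene of the 10 with a negative mean difference there. Without WT array 10 the Aqp1 difference in Per3 4/4 was 0.59, and without WT arrays 10 and 14 it was 0.91 (SE 0.85). Leaving out any 1 of 7 of the 16 arrays of run 2 turned its sign, to values from 0.0632 (Per3 4/4 array 5) to 0.59 (WT array 10), so that the direction of Aqp1 is not settled. Without both arrays Ttr differed by 2.08 (SE 1.39), Kcne2 by 1.54 (SE 1.11) and Otx2 by 0.28 (SE 0.32).

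At an unadjusted p under 0.05, limma had 1 of 12 probes lower in Per3 5/5 (Tmem72), where 2.74% of all probes were, and 3 of 12 higher in Per3 4/4 (Kl and both Clic6 probes), where 0.985% were. Counted by gene these were 1 and 2 of 10, a count that moved with the fit: it was 4 and 1 with only the arrays of the run, and 2 and 0 with array weights, where the smallest p in Per3 4/4 was 0.108. The exact two-sided permutation test over all splits of a run's arrays does not rest on normal values. It gave p = 0.117 for Ttr in Per3 5/5 and 0.225 in Per3 4/4, and p = 0.118 and 0.249 for Kcne2. For Kl in Per3 4/4 this exact test gave p = 0.113. Of 24 such exact tests, 4 were under 0.05: Tmem72 (p = 0.0280) and Clic6 A_52_P447284 (p = 0.0332) in Per3 5/5, and the Clic6 probes in Per3 4/4 (p = 0.0275 and 0.0281). Of all probes, 10.5% were under 0.05 in Per3 5/5 and 1.13% in Per3 4/4, in either direction. The smallest p these splits can give is 0.000583 in run 1 and 0.000155 in run 2. The methods' t-test with Benjamini-Hochberg adjustment called 0 of 12 probes in both genotypes, as it did 0% of all probes. Its unadjusted p was under 0.05 for 2 of 12 probes in Per3 5/5 (Tmem72 and Clic6 A_52_P447284) and 2 of 12 in Per3 4/4 (both Clic6 probes), against 10.4% and 0.985% of all probes.

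The rank product that the study's methods also name, with a false prediction limit of 0.015, gave another count. In Per3 5/5 it called 6 of 12 probes lower (Ttr, Kcne2, Tmem72, Slc4a5, Kl and Aqp1), where it called 0.906% of all probes lower. In Per3 4/4 it called 5 of 12 probes higher (Ttr, Kcne2, Tmem72, Slc4a5 and Folr1 A_51_P329394), where it called 0.111% of all probes higher. The rank product scores a probe by its ranks in pairwise ratios of arrays and does not use the spread within a group. The study had reported Ttr, Kcne2 and Tmem72 as differentially expressed on these arrays. The genes were chosen with earlier results known, so these counts are a description and not separate evidence. The ranges of knock-in and WT arrays overlapped for all 12 probes in both runs; over all probes 0.174% did not overlap in Per3 5/5 and 0.0134% in Per3 4/4.

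The Per3 5/5 effect minus the Per3 4/4 effect was negative for all 10 genes, with a median of -1.78 against -0.02 over all probes, of which 53.2% were below 0. For Ttr it was -4.07 (SE 1.93, interval -8.01 to -0.12), the lowest of all 29947 probes, for Tmem72 -3.11 (interval -5.35 to -0.86), for Kcne2 -2.96 (SE 1.55) and for Slc4a5 -2.01 (SE 0.96). For Clic6 it was -1.01 (SE 0.31) and -0.76 (SE 0.27) with its 2 probes. With normexp background correction the median was -1.02, with -2.52 for Ttr, -0.81 for Tmem72, -1.98 for Kcne2, -1.09 for Slc4a5 and -0.95 and -0.59 for the Clic6 probes, so that the sizes for genes near background rest on how background was treated. Limma called 0 of 12 probes after adjustment over all probes (adjusted p = 1.00 for each), as it did 0% of all probes. At an unadjusted p under 0.05 it had 6 of 12 probes lower (Ttr, Tmem72, Kl, Slc4a5 and both Clic6 probes), where 1.65% of all probes were. The 2 effects share no WT array, and each is set against WT arrays of its own run. These differed in how many were low: 0 of 7 in run 1 and 6 of 8 in run 2 were below the gap in Ttr. The genes were chosen with earlier results of these arrays known, so their ranks among all probes are a description.

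Slides split the effect further. Within the 4 slides of run 1, the median over the 10 genes of the knock-in mean minus the WT mean was 0.67, -0.03, -2.11 and -1.19, from 1 or 2 arrays of each genotype a slide. For Ttr it was 1.68, 0.44, -5.10 and -2.95. Within the 4 slides of run 2 the medians were 1.35, 2.92, -0.15 and -0.59, and for Ttr the differences were 3.08, 6.99, -1.12 and -0.71. Both runs thus had slides with a positive and slides with a negative difference. Per3 4/4 arrays 1 to 4 were on the first slides listed for run 2 and arrays 5 to 8 on the last, so that for Per3 4/4 the high and low arrays coincided with slides, whereas of the high WT arrays, array 9 was on a slide of high and array 14 on a slide of low Per3 4/4 arrays. The last 2 of run 2 are the sets that share a barcode, and both had negative medians. The part of the slides in these differences was not tested. With the slide as a fixed block limma again called 0 of 12 probes in each comparison.

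Between 58.6% and 74.6% of an array's spots were well above background. This share's Pearson r with the mean of the 10 genes, group means removed, was -0.14 in run 1 and 0.47 in run 2, where both dim arrays were on the low side. Its part in the result was not tested.

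The 10 genes followed one another closely across mice. Correlations are given first within the arrays above or below the largest gap in Ttr, over log2 levels with the group means not removed. They describe these arrays only. On the 11 arrays of run 1 above the gap, the median Pearson r of the other 9 genes with Ttr was 0.708 (Spearman 0.818), from 0.966 for Kcne2 down to 0.055 for Otx2. On the 6 arrays of run 2 above the gap it was 0.927 (Spearman 0.771), from 0.842 for Folr1 to 0.991 for Sostdc1. On the 10 arrays of run 2 below the gap it was 0.464 (Spearman 0.382), from 0.931 for Kcne2 to -0.347 for Aqp1, with 7 of 9 positive. The 3 arrays of run 1 below the gap were too few. In run 2, the only run with correlations on both sides, agreement was thus tighter on the high side than on the low side. On the low side many values were near background.

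**Figure D4:**
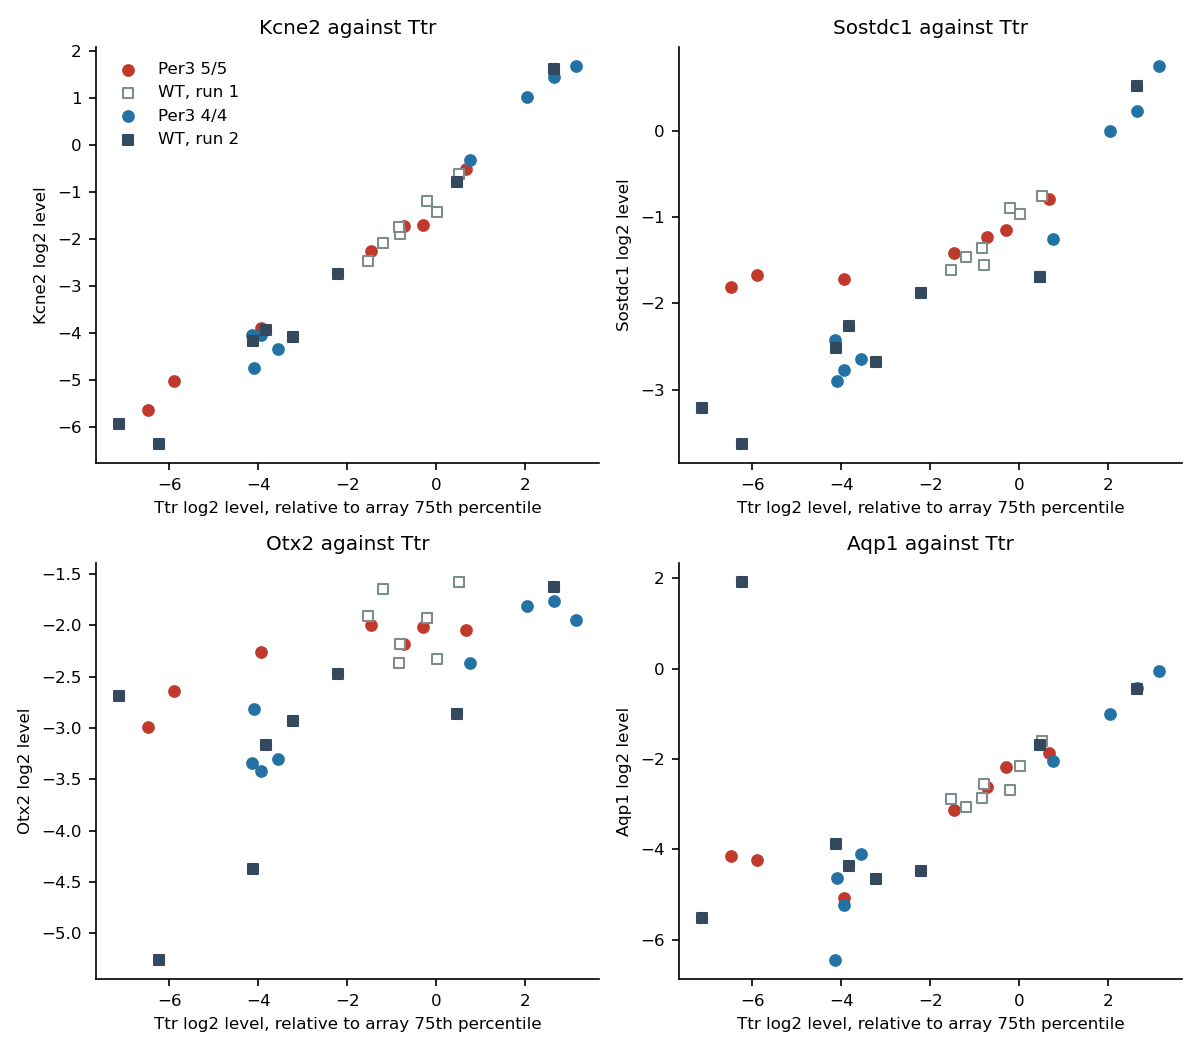
Log2 level of Kcne2, Sostdc1, Otx2 and Aqp1 (y axes) against that of Ttr (x axes) on the 30 arrays, relative to each array's 75th percentile, by group. Kcne2 lies along one line from the lowest to the highest arrays, Sostdc1 flattens below about -4 in the Per3 5/5 arrays, Otx2 scatters on the high side of run 1, and 1 array, WT array 10, lies far above the others in Aqp1.

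With group means removed, over all 30 arrays, a measure that mainly reads which arrays were high and which low, the Pearson r with Ttr was 0.988 for Kcne2, 0.919 for Folr1, 0.911 for Slc4a5, 0.901 for Kl, 0.895 for Sostdc1 and 0.830 for Tmem72. It was 0.772 for Clic6, 0.713 for Otx2 and 0.631 for Aqp1. The median over the 9 genes was 0.895, against 0.031 over the other 29935 probes, and 8 of 9 genes were at 0.7 or above, as were 0.100% (30) of those probes. The median was 0.852 in run 1 and 0.903 in run 2. Without the 2 arrays farthest from the median of Ttr, Per3 4/4 array 4 and WT array 9, the r of Kcne2 was 0.984, that of Aqp1 0.550 and that of Clic6 0.690. The genes were chosen with earlier results of these arrays known, so that this agreement is a description. Clic6 was the loosest in run 1, with an r of 0.397 there.

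Probes of the same gene agreed to different degrees. Over the 30 arrays, group means removed, the r between the 2 probes was 0.874 for Folr1 and 0.692 for Clic6. It was 0.741 for Slc4a5 and 0.558 for Kl, whose other probes were mostly not above background. For Folr1 the second probe differed by 0.11 (SE 0.55) in Per3 5/5 where the first differed by -0.74 (SE 0.69), and by 0.47 (SE 0.52) in Per3 4/4 where the first differed by 1.06 (SE 0.65).

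Other probes were ranked by their Pearson r with the mean of the 10 genes over the 30 arrays, group means removed. The first 15 were led by Trpv4, a calcium-permeable channel (0.973), Steap1, a membrane protein (0.966), F5, coagulation factor V (0.956), and Wdr86 (0.938). Next came 1500015O10Rik (0.925), Sult1c2, a sulfotransferase (0.899), Enpp2, which makes lysophosphatidic acid (0.854), Rbm47, an RNA-binding protein (0.843), and Cox8b, a subunit of cytochrome c oxidase (0.839). The others were Defb11 (0.824), Wfdc2 (0.820), the other Steap1 probe (0.817), Slc16a8, a lactate transporter (0.802), Vpreb1 (0.797) and Cldn2, a tight junction protein (0.793). The first probe outside the 15 was Itpripl1, at 0.789. Of the 15, 7 are probes of genes on a list of other choroid plexus genes, Steap1, F5, Enpp2, Cox8b, Slc16a8 and Cldn2. That list was written with earlier results of these data known. On the 11 arrays above the gap of run 1 their r with Ttr was between 0.088 and 0.843, and on the 6 arrays above the gap of run 2 between 0.348 and 0.995. On the 10 arrays below the gap of run 2 it was between -0.338 (Cldn2) and 0.795 (Sult1c2), with a median of 0.383 and 11 of 15 positive. None of the 15 was called by limma in any comparison. Trpv4 differed by -0.59 (SE 0.36) in Per3 5/5 and 0.35 (SE 0.33) in Per3 4/4, and F5 by -0.95 (SE 0.72) and 0.90 (SE 0.67).

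The list of other choroid plexus genes was written from general knowledge, but with earlier results of these data known. It holds Sln, which the study had reported as differentially expressed on these arrays, so its counts are a description. Of 50 genes listed, 45 were tested. Their median r with the mean of the 10 genes was 0.44, and 22 of 45 (48.9%) were at 0.5 or above, as were 0.624% of all probes. The mean of the list followed the mean of the 10 genes with r = 0.917 (0.807 in run 1 and 0.942 in run 2). In Per3 5/5, 32 of 45 differences were negative, with a median of -0.13, where 54.5% of all probes were below 0. In Per3 4/4, 41 of 45 were positive, with a median of 0.28, where 51.7% of all probes were above 0. None of the 45 was called by limma, and at an unadjusted p under 0.05 there was 1 of 45 lower in Per3 5/5, where 2.74% of all probes were, and 5 of 45 higher in Per3 4/4, where 0.985% were. Steap1, the closest of them, differed by -0.74 (SE 0.56) and 0.70 (SE 0.53), and Enpp2, which oligodendrocytes also express, by -0.15 (SE 0.34) and 0.29 (SE 0.32). The lowest r of the list was -0.20, for Igf2, a growth factor that the meninges also make.

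**Figure D5:**
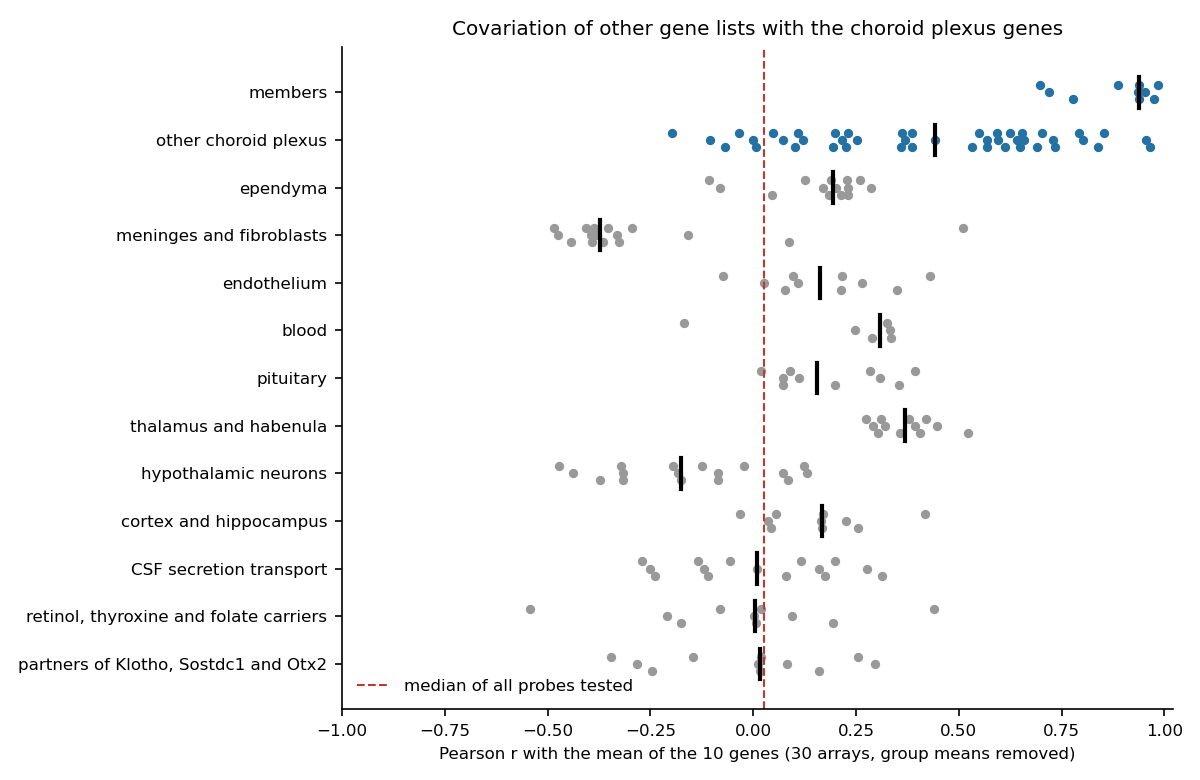
Pearson r of each gene (dots) with the mean of the 10 choroid plexus genes over 30 arrays with group means removed (x axis), by gene list (y axis), with the list median as a black bar and the median of all probes tested as a dashed line at 0.03. The other choroid plexus genes reach 0.97 with a median of 0.44, genes of thalamus and habenula lie between 0.28 and 0.52, and most genes of meninges lie below 0.

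Genes of neighbouring tissue were compared in the same way. The 12 genes of thalamus and habenula, which adjoin the plexus of the third ventricle, all had a positive r with the mean of the 10 genes, between 0.28 and 0.52 (median 0.37), highest for Gpr151, a receptor of habenular neurons. Their median difference was 0.23 in Per3 5/5 and 0.35 in Per3 4/4. The 14 genes of ependyma, the ciliated lining of the ventricles, had a median r of 0.19, with 12 of 14 differences negative in Per3 5/5 (median -0.21) and 13 of 14 positive in Per3 4/4 (median 0.33). The 16 genes of meninges and fibroblasts had a median r of -0.37, with Lum, a matrix proteoglycan, at 0.51. Although they ran against the 10 genes from mouse to mouse, 12 of 16 differences were negative in Per3 5/5 (median -0.17) and 11 of 16 positive in Per3 4/4 (median 0.11). The 17 genes of hypothalamic neurons had a median r of -0.18 and median differences of 0.20 and 0.37. Over all probes, 54.5% of differences were below 0 in Per3 5/5 and 51.7% above 0 in Per3 4/4. Limma called 0 genes of these lists. Against WT arrays 1 gene of the 4 lists, of meninges, was higher in Per3 4/4 at an unadjusted p under 0.05, where 0.985% of all probes were.

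The summed level of the thalamus and habenula genes ranged from 30.7 to 53.6 in Per3 5/5, 33.5 to 47.8 in WT of run 1, 16.5 to 77.3 in Per3 4/4 and 6.66 to 63.6 in WT of run 2, with no gene of the list at background on every array. That of the ependyma genes ranged from 23.5 to 37.9, 27.9 to 46.2, 28.9 to 54.5 and 9.22 to 50.9 in the same order. Array by array these sums did not follow the high and low sides of Ttr throughout. In Per3 4/4 the thalamus and habenula sum was 48.4 to 77.3 on the high arrays 1 to 4 and 16.5 to 21.2 on the low arrays 5, 7 and 8, but within the range of the high arrays on the low array 6. Among WT arrays of run 2 it was 8.45 and 6.66 on the low arrays 8 and 10, but 45.9 to 63.6 on the low arrays 11, 12, 13 and 15 and 21.5 on the high array 14. The ependyma sum in Per3 4/4 was 28.9 to 43.7 on the high arrays and 39.2 to 54.5 on the low ones. Their part in the result was not tested. The 10 genes of cortex and hippocampus all had negative differences in Per3 5/5, with a median of -0.48, where 54.5% of all probes were below 0. Of these, 2 of 10 were lower at an unadjusted p under 0.05 by limma, where 2.74% of all probes were. The list had a median r of 0.17. Their median in Per3 4/4 was -0.01. Blood and endothelium had median r of 0.31 and 0.16, pituitary of 0.16, the last with median differences of 0.26 in Per3 5/5 and -0.49 in Per3 4/4, and limma called 0 genes of each.

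The rank product also called genes of these lists, of which some are given here. Of 44 other choroid plexus genes it called 4 lower in Per3 5/5 (F5, Cox8b, Sln and Car12), against 0.906% of all probes. In Per3 4/4 it called 2 of them higher (F5 and Sln), against 0.111%. The study had reported Sln on these arrays, and the list was written with earlier results known, so these counts are a description. It also called Car3, of the list for the secretion of cerebrospinal fluid, lower in Per3 5/5. Gpr151 was called higher in Per3 4/4. Of 10 pituitary genes it called 2 lower in Per3 4/4 (Gh and Prl), where it called 0.0436% of all probes lower, and 2 higher (Cga and Pitx1). The highest pituitary sum was on WT array 14.

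Genes of the wider pathways had little of this pattern. A list of 15 genes for the secretion of cerebrospinal fluid that many cells use, such as Slc12a2, the sodium potassium chloride cotransporter (r 0.28), and Slc4a2, an anion exchanger (r 0.31), had a median r of 0.01 and median differences of -0.07 in Per3 5/5 and -0.01 in Per3 4/4. A list of 10 carriers of retinol, thyroxine and folate had a median r of 0.00467, with Slco1c1, a thyroxine transporter, highest at 0.44, and median differences of -0.04 and 0.01. The 11 tested partners of Klotho, Sostdc1 and Otx2, such as Klb, a relative of Klotho (r 0.30), and Otx1, a relative of Otx2 (r 0.25), had a median r of 0.02 and median differences of 0.03 and 0.04. At an unadjusted p under 0.05 limma had 1 gene lower in Per3 5/5 in each of the first 2 lists, where 2.74% of all probes were. In the last list 1 was higher in Per3 4/4, where 0.985% of all probes were. After adjustment there were 0.

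Otx factors are known to bind the letters TAATCC, which were searched on both strands, as TAATCC or GGATTA, in RefSeq promoters of build GRCm38.p6, windows of 300 bases around a start site. The table held 10 promoters of 6 of the genes (Kcne2, Tmem72, Kl, Aqp1, Otx2 and Slc4a5). The letters were found in 1 of the 10, a promoter of Otx2 itself, and in 7.06% (2320) of all 32851 promoters. The match is shown in capitals in 30 bases of the minus strand at chr14:48665303-48665332, and begins 211 bases before the start site.
Otx2 promoter: cgtgtgcccctcGGATTAtctcgttagttt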

How the data were processed

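Hypothalamic RNA of 30 mice was measured on 1-colour Agilent 44K arrays. The authors deposited each array's scanner output, with background-subtracted spot intensity from Feature Extraction 10.7.1.1 that is not normalized between arrays. A log2 table the authors deposited beside it, shifted to each array's 75th percentile per the methods, proved centred on each probe's median within a run (100% of probe medians within 0.01 of 0), and 764 tested probes were empty on some array of run 1. It served as an alternative.

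Here control and outlier spots (36 to 117 per array) were left out, log2 intensity was set relative to the 75th percentile of its array, and the spots of a probe were averaged. No spot was marked saturated. Limma 3.58.1 in R 4.3.3 fitted 4 group means to all 30 arrays, with Benjamini-Hochberg adjustment over 29947 probes. In simulated data over these probes it recovered 96.5% (Per3 5/5) and 99.0% (Per3 4/4) of 200 probes with a log2 change of 2, with 7 and 5 false calls. These rates are for probes in general, whose median SD was 0.25 in Per3 5/5 and 0.34 in Per3 4/4. The SD of Ttr was 2.84 and 3.32 there, so the rates do not hold for genes as variable as Ttr. P-values measure the spread between mice, and the number of arrays limits the precision. The main limma fit pools that spread over the 4 groups of both runs, although it differed between them. The SD of Ttr was 0.72 in WT of run 1 and 3.25 in WT of run 2. A limma p thus does not measure the spread of the compared mice alone. The exact test and the methods' t-test used only the arrays of the run.

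The text names the 10 genes with every probe, the 15 nearest other probes by r, and at most 4 genes per list with the highest r; Igf2 and the list genes named for the rank product were named after their values were seen. Gene names are the array annotation's. The lists came from general knowledge (175 of 187 genes had a tested probe), and genes and lists were chosen with earlier results of these data known. Slides are arrays with the same scan time. Alternatives were the slide as a random or fixed block, 1 run alone, a replicate block, normexp background (offset 50, on medians), quantile scaling, the percentile over probes always detected, the authors' table, 2 filters, outlier spots kept, array weights, trended and robust moderation, the rank product (100 permutations), the methods' t-test and each array left out. Leaving out WT arrays 10 and 14, and a block by the table's replicate numbers, were added after values had been seen. The methods' 1-way ANOVA was not run. Some results of the rank product in the lists are not reported here. Arrays of the same number in run 1 correlated between -0.29 and 0.40, so the numbers do not pair the mice. Python 3.11.15, numpy 2.4.6, pandas 2.3.3, scipy 1.17.1 and matplotlib 3.10.9 were also used.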

Additional observations from a re-analysis of the deposited data

Results flagged for a closer look

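Of 48 sets of 1 tested probe in 1 group, 3 had an array set far from the others by Dixon's criterion, where chance gives about 1 in 20. Folr1 A_52_P584335 was at -3.16 on Per3 5/5 array 2, the highest of its group. Sostdc1 was at 0.52 on WT array 9, the highest of WT in run 2. Slc4a5 A_51_P403814 was at -1.39 on WT array 3, the highest of WT in run 1, the array that was also highest of that group for Ttr, at 0.51.

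For Clic6 A_52_P447284, 7 of 7 Per3 5/5 arrays lay below and 8 of 8 Per3 4/4 arrays above the mean of their WT arrays. The ranges of knock-in and WT arrays overlapped in both runs. Within slides 1 and 2 of run 1 the difference was only -0.08 and -0.06. With the other Clic6 probe 6 of 7 Per3 5/5 arrays lay below the WT mean. The share of all probes that met this rule is not given here, and run and allele cannot be told apart. The difference between the effects was -1.01 on the log2 scale (SE 0.31, limma p = 0.00298, adjusted p = 1.00 over all probes), so it failed the correction.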

How the results depend on the processing

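Of 486 values of single probes under the alternatives, 483 kept their direction and their side of the threshold. The exceptions were Folr1 A_52_P584335 in Per3 5/5 with normexp (-0.00635, against 0.11) and Aqp1 in Per3 4/4 with array weights (0.57) and without WT arrays 10 and 14 (0.91), against -0.10. Leaving out 1 array kept 1072 of 1080; the rest were Aqp1 in Per3 4/4, from -0.52 (without Per3 4/4 array 4) to 0.59 (without WT array 10) and above 0 without any 1 of 7 arrays, and Folr1 A_52_P584335 in Per3 5/5, from -0.0568 (without array 2) to 0.19. Counts of probes called were 0 in each comparison under each alternative except the rank product, which called 6 and 5 of the 12 probes and, summed over the comparisons, 18 of 348 tests of genes of the other lists; without any 1 array they were 0. The median r with Ttr was 0.852 in run 1 alone, against 0.895, and 0.874 to 0.909 without 1 array. In Per3 5/5 the smallest adjusted p among the 10 genes was 0.430 with the replicate block (8 of 10 genes at an unadjusted p under 0.05, against 1) and 0.431 with the numbers of the authors' table, and 0.224 with the slide as a fixed block; the block changed no call. In run 2 no paired analysis was possible because Per3 4/4 and its WT arrays share fewer than 2 numbers. The difference between the alleles spans both runs, so it has no value within a run. Only 5 of the 10 genes were above background on every array. The large differences of Ttr rest on few arrays: in Per3 5/5 -1.36 without array 6 and -2.55 without array 3, in Per3 4/4 1.46 without WT array 15 and 2.86 without WT array 9. Signal over background limits the low values of Ttr, Kcne2, Tmem72, Aqp1 and Slc4a5, which are bounds on some arrays.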
